A study of Mus musculus with 4 samples.

Results

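The interleukin 17 (IL-17) ligands and receptors and the IL-22 axis were followed in small intestinal group 3 innate lymphoid cells (ILC3s) with and without Brg1, the ATPase of the BAF chromatin remodelling complex. The 10 genes were taken by name from these 2 cytokine families, not by their values. They are the 5 ligands Il17a, Il17f, Il22, Il17c and Il17d and the 5 receptor genes Il17ra, Il17rc, Il17re, Il22ra1 and Il22ra2, out of 53379 genes in the table. RNA was sequenced from 4 libraries, 2 from control (Brg1-sufficient) and 2 from Brg1-deficient ILC3s, which the study calls biological duplicates. Both donors were C57BL/6 mice that lacked Rag1 and carried floxed alleles of Smarca4, the gene for Brg1. In the Brg1-deficient donor these alleles were deleted in ILC3s and the Thy1.1 allele was present, and the control donor had neither the deletion nor Thy1.1. Marrow of the 2 donors was mixed in equal numbers of cells and given to irradiated Rag2-/- Il2rg-/- mice, and intestinal ILC3s (Thy1.2high CD45low) were sorted by Thy1.1 after 6 to 7 weeks. The means of deletion and the Thy1.1 allele went with the loss of Brg1 in both Brg1-deficient libraries, so their effects cannot be told apart. The ages of the mice were not given in the sources used here.

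IL-17A and IL-17F are related cytokines that are secreted as homodimers or as a heterodimer and bind a receptor made of IL-17RA and IL-17RC on epithelial and stromal cells. IL-17C acts through IL-17RA with IL-17RE, mainly on epithelium. IL-22 belongs to the IL-10 family, signals through IL-22RA1 with IL-10RB to STAT3 in epithelial cells, and is bound by the soluble decoy receptor IL-22RA2. In the intestine, ILC3s are a main innate source of IL-22 and also make IL-17.

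In the data, 6 of the 10 genes were abundant enough to test and 1 of these, Il17f, passed the test, beside 0.305% of all genes tested. This call depended on the fit, as given below. Without Brg1, the level of Il17f was 4.23-fold that of controls, while its neighbour Il17a was at 0.71 of the control level without passing the test. Il22 was among the 4 most abundant transcripts of every library, and its difference rested on 1 library. The receptor genes Il17ra, Il17rc and Il17re were present in all libraries, and Il22ra1, Il22ra2, Il17c and Il17d were below 1 FPKM in all of them. FPKM is a fragment number scaled to the length of the transcript and to the total mapped in the library, so it can be compared between genes of different length.

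The sequences before the start sites of the 3 expressed ligands are shown because they are the DNA nearest to where these transcripts begin. Each runs 5′ to 3′ from 250 bases before to 50 bases after the RefSeq start in GRCm38.p6. Capitals mark the half-site shared by many nuclear receptors (AGGTCA, or TGACCT on the opposite strand) and the TATA box (TATAAA on the gene's strand).
Il17a promoter, chr1:20730655-20730954, plus strand: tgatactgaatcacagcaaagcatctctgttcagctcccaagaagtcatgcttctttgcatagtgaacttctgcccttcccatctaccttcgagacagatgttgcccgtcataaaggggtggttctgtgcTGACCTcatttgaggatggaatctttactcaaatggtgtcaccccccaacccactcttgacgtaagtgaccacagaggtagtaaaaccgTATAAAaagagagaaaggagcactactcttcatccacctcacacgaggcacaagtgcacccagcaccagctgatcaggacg
Il17f promoter, chr1:20784221-20784520, minus strand: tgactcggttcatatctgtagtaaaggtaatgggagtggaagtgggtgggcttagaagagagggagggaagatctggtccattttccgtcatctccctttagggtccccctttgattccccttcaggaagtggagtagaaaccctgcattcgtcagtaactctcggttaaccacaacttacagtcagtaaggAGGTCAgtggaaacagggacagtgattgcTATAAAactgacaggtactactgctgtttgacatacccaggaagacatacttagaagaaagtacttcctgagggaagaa
Il22 promoter, chr10:118204714-118205013, plus strand: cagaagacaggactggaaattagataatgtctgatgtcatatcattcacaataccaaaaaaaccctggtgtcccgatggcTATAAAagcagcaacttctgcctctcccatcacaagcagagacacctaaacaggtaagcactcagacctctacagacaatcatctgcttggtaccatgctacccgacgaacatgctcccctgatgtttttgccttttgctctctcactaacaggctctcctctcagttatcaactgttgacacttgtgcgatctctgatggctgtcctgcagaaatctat
The Il17a window held 1 such half-site, 120 bases before the start on the opposite strand, and the Il17f window held 1, 58 bases before the start on the gene's own strand. No AGGTCA was in the Il22 window. On either strand, AGGTCA was found in 16.3% of 32851 promoters and TATAAA in 13.6%. The TATA box lay 31 bases before the start of Il17a, 29 before that of Il17f and 170 before that of Il22. The RUNX letters TGTGGT, found in 16.8% of promoters on either strand, were present once in Il17a and once in Il17f. The AP-1 letters TGANTCA, found in 7.81%, were present once in Il17a. No match to TTCNNNGAA (STAT, 8.30% of promoters), GCGTG (aryl hydrocarbon receptor, 32.4%), GGTGTGA (T-box, 3.98%) or GGGANNNCC (NF-κB, 18.6%) was in the 3 windows. RefSeq windows were found for 8 of the 10 genes, and not for Il17ra or Il22ra2. Letters in a window are a description only, and no binding was measured here.

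Il22 has a near-identical copy in C57BL/6 mice, Iltifb, and a stretch of both coding sequences is shown with the bases that differ. The stretch is 90 bases, the length of the sequencing reads, and is read from the GENCODE M21 transcripts on GRCm38. Capitals mark the 4 bases that differ.
Il22 coding bases 128 to 217: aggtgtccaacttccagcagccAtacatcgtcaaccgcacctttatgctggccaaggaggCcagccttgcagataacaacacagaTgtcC
Iltifb coding bases 128 to 217: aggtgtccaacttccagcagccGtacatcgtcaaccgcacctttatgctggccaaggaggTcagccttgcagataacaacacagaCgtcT
Over the whole transcripts, 1081 of 1110 aligned bases were identical (97.4%), and 9 of 537 coding bases differed. Of these 9, 4 lie in the stretch shown, which matches less closely than the coding sequence as a whole. Of the 1021 stretches of 90 bases in the Il22 transcript, 246 (24.1%) occurred unchanged in Iltifb. Of the 1061 stretches of 50 bases, 435 (41.0%) did. Reads from such shared stretches have no single origin and were divided between the 2 genes by estimation.

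The FPKM values were distributed almost identically in the 4 libraries. Of the 13693 ranks with a mean above 1 FPKM, 13596 (99.3%) differed by less than 1% between libraries, as quantile normalization gives, although the sources used here do not name that step. No counts were used here, so the depth of each library is unknown. Control libraries had 17.1 and 16.7 FPKM of Smarca4, and Brg1-deficient ones 9.98 and 9.03 FPKM (log2 fold change -0.77, SE 0.164, adjusted p = 0.153 by limma). Differences were tested with limma on log2(FPKM + 1) over the 14739 genes with a mean above 1 FPKM in either group, with Benjamini-Hochberg adjustment over all of them. This called 33 genes lower and 12 higher, or 0.305% of the genes tested. Over all tested genes the median log2 fold change was 0.03. Permuting 2 libraries against 2 gives a two-sided exact p of 0.333 at best, so each call relies on limma's pooling of the spread over genes. Fold changes are given as Brg1-deficient over control, and log2 fold changes on the log2(FPKM + 1) scale, which understates the change of low genes.

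The identity of the cells was checked against marker genes. The 12 ILC3 markers summed to between 4276 and 4337 FPKM in controls and between 4039 and 4087 FPKM in Brg1-deficient ILC3s. Of the 12, 1 was called, Tcrg-C4, which was lower. With the threshold at an unadjusted p of 0.05, which 12.6% of all genes tested passed, 3 were lower and 1 was higher. Ccr6 was at 186 and 203 FPKM in controls against 92.9 and 106 FPKM (adjusted p = 0.0901 by limma). Arg1 was at 72.1 and 38.9 FPKM against 8.73 and 14.4 FPKM (adjusted p = 0.104 by limma). The 10 ILC1 and NK markers summed to 288 and 469 FPKM in controls and to 652 and 464 FPKM in Brg1-deficient libraries, and 2 of 8 tested were called lower, Ncr1 and Ifng. At an unadjusted p under 0.05, which 12.6% of all genes tested passed, 4 of these 8 were lower and 2 were higher, Gzma (log2 fold change 2.01, adjusted p = 0.153) and Klrk1 (0.70, adjusted p = 0.143, both by limma). Ncr1, which encodes NKp46, and Ifng do not mark ILC1 and NK cells alone. The study describes an NKp46+ subset of ILC3s that makes interferon gamma, and reports a smaller share of it among small intestinal ILC3s without Brg1. T cell markers summed to 431 and 269 FPKM in controls against 120 and 111 FPKM, with 1 of 8 tested called lower, Trbc1, and 7 lower at an unadjusted p under 0.05, beside 12.6% of all genes tested that passed in either direction. The ILC2 markers summed to 366 and 207 FPKM in controls against 116 and 141 FPKM, with 0 of 8 tested called and 5 lower and 1 higher at an unadjusted p under 0.05. Macrophage and dendritic cell markers summed to 174 and 315 FPKM in controls against 106 and 265 FPKM, with 0 of 8 tested called. B and plasma cell markers summed to 32.7 and 25.9 FPKM in controls against 35.7 and 49.6 FPKM, with 1 of 2 tested called lower, Cd79b, while Ighm was at 22.9 and 15.0 FPKM against 33.2 and 47.8 FPKM (log2 fold change 1.06, adjusted p = 0.221 by limma). Epithelial markers summed to 12.2 and 15.9 FPKM in controls against 25.4 and 24.8 FPKM, with 0 of 5 tested called and 2 higher at an unadjusted p under 0.05. These were the keratin genes Krt18, at 2.02 and 3.48 FPKM against 15.7 and 12.9 FPKM (adjusted p = 0.0677 by limma, 0.00571 with the library number as a block), and Krt8 (adjusted p = 0.187 by limma), while Epcam was at 1.5 and 1.79 FPKM against 0.68 and 0.54 FPKM. The markers of neutrophils (3.45 to 5.52 FPKM, Elane at 0 in all libraries), stroma and endothelium (66.1 to 91.1 FPKM) and mast cells and basophils (6.96 to 11.0 FPKM) had no call among 4, 3 and 1 genes tested. Most of the stroma and endothelium sum was Pecam1, at 62.25 and 87.9 FPKM in controls against 65.7 and 64.0 FPKM. The other markers of that list, Col1a1, Col3a1, Pdgfra, Cdh5 and Dcn, reached at most 2.52 FPKM in any library. By the study's account, Rag1-/- mice lack T and B cells and the recipients were deficient for adaptive immune cells. The T cell and the B and plasma cell markers therefore do not measure such cells here, and the source of their transcripts was not tested. The part of transcripts of other cell types in the differences between the groups was not tested. In such bulk RNA, fewer cells that express a gene and less RNA of it per cell cannot be told apart.

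Il17f encodes the cytokine IL-17F and lies on chromosome 1 of GRCm38 from 20777146 to 20790617 on the minus strand. The control libraries had 555 and 421 FPKM of Il17f, and those without Brg1 had 2279 and 1852 FPKM. Both Brg1-deficient values were far above both control values, and the gaps within each group were small beside the gap between them. The means were 488 ± 94.6 FPKM in controls and 2066 ± 302 FPKM in ILC3s without Brg1 (SD, n = 2 each). On the log2 scale Il17f differed by 2.08 (SE 0.199, 95% confidence interval 1.58 to 2.58, adjusted p = 0.0386 by limma with Benjamini-Hochberg adjustment). Among all genes ordered by FPKM, Il17f stood at ranks 144 and 193 in controls and at ranks 39 and 47 in Brg1-deficient libraries. Its log2 fold change was between 1.89 and 2.28 when each library in turn was left out, and the call was lost each time (adjusted p = 0.202 without control library 1, 0.180 without control library 2, 0.371 without Brg1-deficient library 1 and 0.375 without Brg1-deficient library 2, by limma). The call was also lost without the filter on low values (adjusted p = 0.0912) and without the trend of variance on expression (adjusted p = 0.126, both by limma).

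Il17a encodes IL-17A, the founding member of the family, and lies on chromosome 1 from 20730905 to 20734496 on the plus strand. Its levels were 62.4 and 51.4 FPKM in controls against 50.3 and 30.4 FPKM in Brg1-deficient ILC3s. The groups did not overlap, but the lower control value and the higher Brg1-deficient value lay about 1 FPKM apart. The log2 fold change of Il17a was -0.52 (SE 0.267, 95% confidence interval -1.19 to 0.15, adjusted p = 0.505 by limma). With the library number as a block its interval excluded 0 (-0.946 to -0.096), without a call (adjusted p = 0.237 by limma). A fall or little change therefore cannot be separated with these libraries. The log2 fold change was -0.17 without Brg1-deficient library 2, -0.87 without Brg1-deficient library 1, -0.38 without control library 1 and -0.66 without control library 2. Il17a was thus a much less abundant transcript than Il17f in every library, at ranks 1661, 2007, 2054 and 3197.

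Il22 encodes IL-22, which acts on epithelial cells and not on haematopoietic cells, and lies on chromosome 10 from 118204942 to 118210047 on the plus strand. Control values were 8328 and 10408 FPKM, and values without Brg1 were 21159 and 10408 FPKM. Control library 2 and Brg1-deficient library 2 had the same value, so the groups overlapped. The log2 fold change was 0.67 (SE 0.363, 95% confidence interval -0.24 to 1.58, adjusted p = 0.520 by limma). It was 0.16 without Brg1-deficient library 1 and 1.18 without Brg1-deficient library 2, neither with a call. These values are those of the ranks Il22 held, 4 and 2 in the controls and 1 and 2 in the Brg1-deficient libraries. In the values as deposited, rank 1 is worth 2.03 times rank 2, and rank 2 is worth 1.25 times rank 4, and a gene at these ranks can take no value between them. The gene at rank 1 in the other 3 libraries was Gm10800, a predicted gene.

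Iltifb, the copy of Il22 further along chromosome 10 (118289629 to 118295038, minus strand), had 27.7 and 38.2 FPKM in controls and 59.3 and 47.3 FPKM in Brg1-deficient ILC3s. These values did not overlap and sat where ranks are close in value (log2 fold change 0.69, SE 0.215, adjusted p = 0.298 by limma). Its level was far below that of Il22, and the share of its reads that came from Il22 is unknown. The log2 fold change of the sum of both genes was 0.67, as for Il22 alone, in a comparison chosen after seeing the data.

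Il17c, whose product is made mostly by epithelial cells, was at 0.34 and 0.30 FPKM in controls and was listed at 0 and at 0.34 FPKM in Brg1-deficient libraries. Il17d, a family member described mainly outside lymphoid cells, was between 0 and 0.04 FPKM. These 2 ligands were below the filter, so they were not tested with the others, and their levels give no order between the groups. With no filter, the log2 fold change was -0.19 for Il17c (adjusted p = 0.852) and -0.02 for Il17d (adjusted p = 0.937, both by limma).

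**Figure D1:**
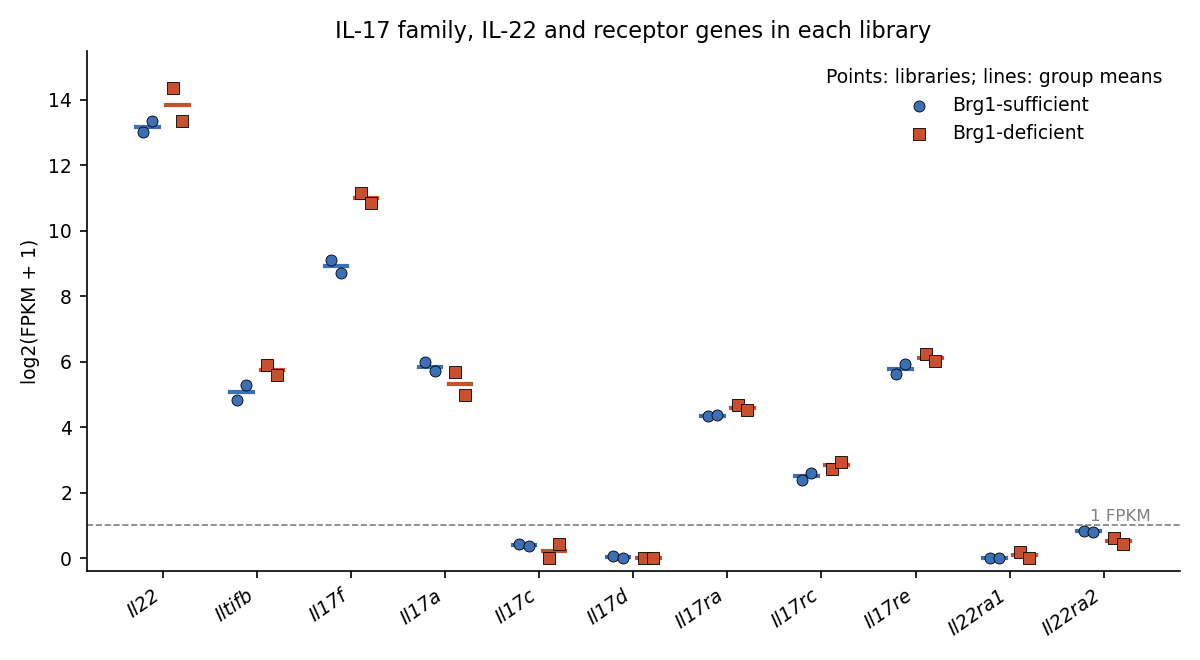
Levels of the 10 genes and of Iltifb as log2(FPKM + 1) in the 2 control (blue circles) and 2 Brg1-deficient libraries (orange squares), with group means as lines and 1 FPKM as a dashed line. Il17f separates widely between the groups (421 to 555 against 1852 to 2279 FPKM), Il22 is near the top of the scale in every library, and 4 genes lie below 1 FPKM.

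**Figure D2:**
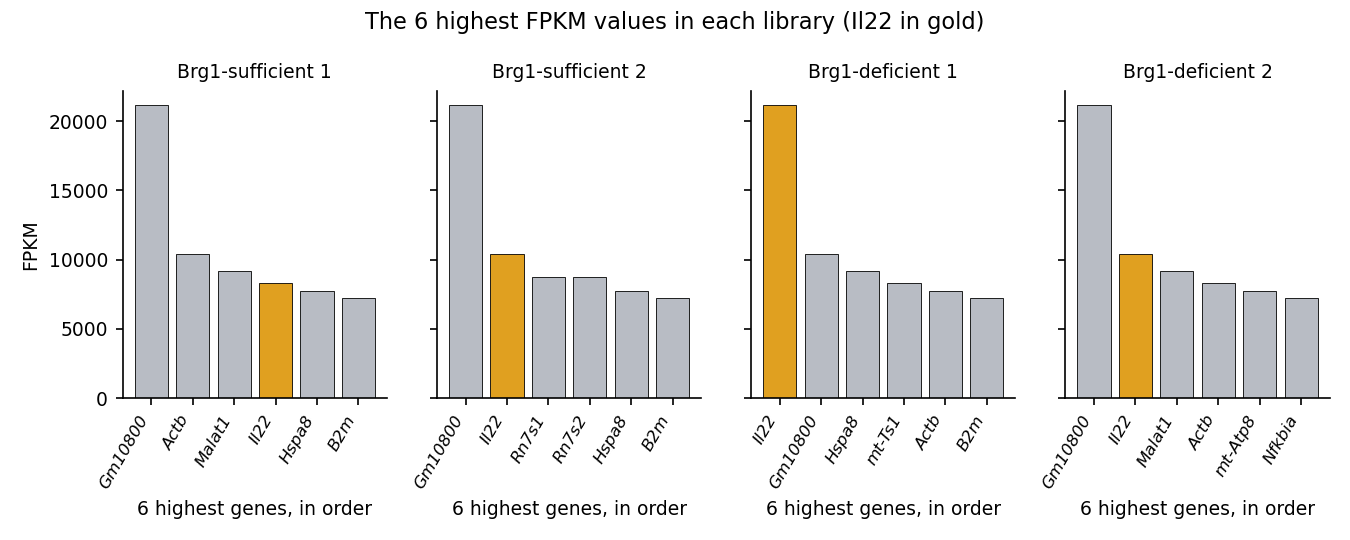
FPKM (bars from 0) of the genes at the 6 highest ranks in each of the 4 libraries, with Il22 in gold. The rank values are nearly the same in all libraries, and Il22 takes the value of whichever rank it holds, from 8328 FPKM at rank 4 to 21159 FPKM at rank 1.

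The balance of the ligands was compared as ratios within each library, in values that still carry the distribution shared by the 4 libraries. The Il17f level was 8.90 and 8.21 times the Il17a level in controls and 45.3 and 60.9 times in Brg1-deficient ILC3s. Both Brg1-deficient ratios exceeded both control ratios, and the mean log2 ratio was 2.61 higher (pooled SD 0.212). The ratio of Il17f to Il22 was 0.0667 and 0.0405 in controls and 0.108 and 0.178 in Brg1-deficient libraries, a log2 difference of 1.41 (pooled SD 0.510). The ratio of Il17a to Il22 moved the other way, from 0.00750 and 0.00493 to 0.00238 and 0.00292, a log2 difference of -1.19 (pooled SD 0.338). The groups did not overlap in any of these 3 ratios, and each exact two-sided permutation test gave p = 0.333, the smallest this design allows. Il22 values of the ratios carry the steps between top ranks described for Il22.

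Of the summed FPKM of Il17a, Il17f and Il22, Il17f made up 6.21% and 3.87% in controls and 9.70% and 15.1% in Brg1-deficient ILC3s. The mean share was 7.35 percentage points higher (12.4% against 5.04%, pooled SD 2.93, exact permutation p = 0.333). It was 4.66 points without Brg1-deficient library 2 and 10.03 points without Brg1-deficient library 1. Of Il17a and Il17f alone, Il17f was 89.9% and 89.1% in controls and 97.8% and 98.4% in Brg1-deficient ILC3s, a difference of 8.60 points (pooled SD 0.465) in a comparison chosen after seeing the data. Il22 was the main one of the 3 transcripts in each library, and Il17f was the main one of the IL-17A and IL-17F pair in each.

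The receptor genes of the IL-17 family were at lower levels than Il17f and Il22, while Il17re was above Il17a in 3 of the 4 libraries. Il17ra, the subunit shared by the receptors of several IL-17 cytokines, had 19.2 and 19.7 FPKM in controls against 24.5 and 22.1 FPKM in Brg1-deficient ILC3s. Its Brg1-deficient values were both above the controls by a small margin (log2 fold change 0.25, SE 0.153, 95% confidence interval -0.14 to 0.63, adjusted p = 0.585 by limma). Il17rc, which pairs with IL-17RA to bind IL-17A and IL-17F, was at 4.24 and 5.09 FPKM against 5.68 and 6.63 FPKM. The values again did not overlap (log2 fold change 0.34, SE 0.211, 95% confidence interval -0.19 to 0.87, adjusted p = 0.585 by limma). Il17re, the IL-17C receptor subunit, was the most abundant of the receptor genes, at 48.9 and 59.9 FPKM against 74.0 and 64.1 FPKM. Its log2 fold change was 0.34 (SE 0.169, 95% confidence interval -0.08 to 0.77, adjusted p = 0.491 by limma). In FPKM, which is per length, the order Il17re, Il17ra, Il17rc held in all 4 libraries, with no overlap between the 3 genes. Il17re and Il17rc lie next to each other on the plus strand of chromosome 6, from 113458484 to 113470758 and from 113471427 to 113483140, 668 bases apart. Il17ra lies further along the same chromosome, from 120463247 to 120487559.

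The receptor genes of IL-22 were hardly detected. Il22ra1, the signalling subunit of epithelial cells, was listed at 0 in both control libraries and had 0.15 and 0.01 FPKM in the others. Il22ra2, the gene of the soluble decoy known from dendritic cells, was at 0.79 and 0.74 FPKM in controls against 0.53 and 0.36 FPKM in Brg1-deficient ILC3s. Both were under the filter, and with no filter their log2 fold changes were 0.11 (adjusted p = 0.785) and -0.29 (adjusted p = 0.802, both by limma). The other IL-22 receptor subunit, Il10rb, which also serves IL-10, was at 19.3 and 20.6 FPKM in controls against 19.1 and 27.6 FPKM in Brg1-deficient libraries (log2 fold change 0.20, adjusted p = 0.738 by limma). Libraries of both groups therefore had transcripts of 3 IL-17 receptor subunits and of the shared IL-22 receptor subunit. They had next to none of the IL-22-specific one. Which of the sorted cells these transcripts came from was not tested.

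By counts, 6 of the 10 genes passed the filter and 1 of these 6 was called, beside 0.305% of all genes tested. At an unadjusted p under 0.05, 12.6% of all genes tested passed, and Il17f was the single one among the 6. In 5 of the 6 the groups did not overlap, against 44.6% of all genes tested, and in 4 of the 6 they did not overlap and were higher in Brg1-deficient ILC3s, against 24.4% of all genes tested. Since 6 is a small number, these counts describe the genes and were not tested.

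**Figure D3:**
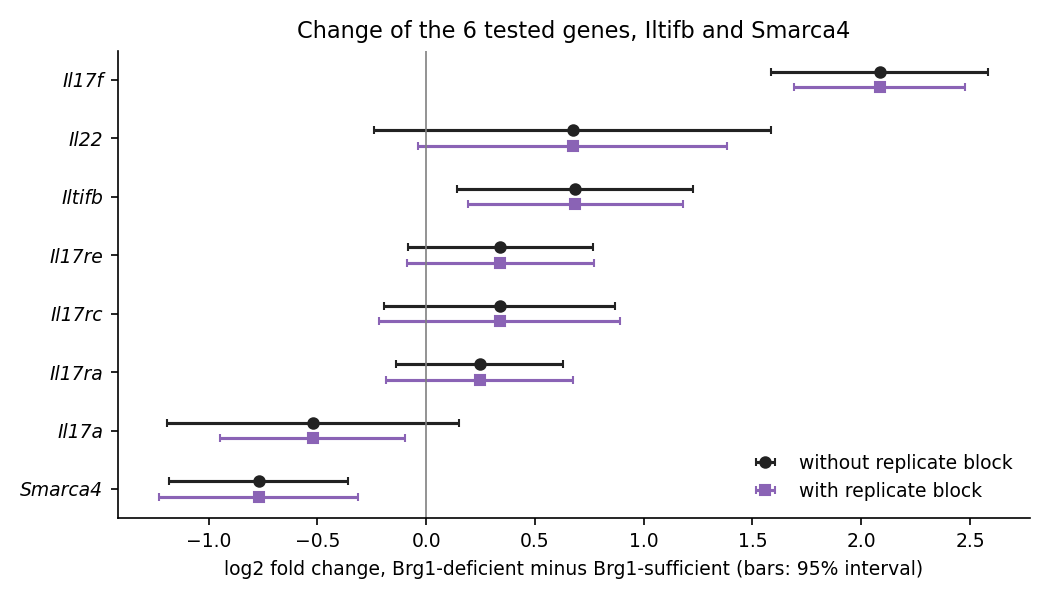
Log2 fold change (Brg1-deficient over control, log2(FPKM + 1) scale) with 95% confidence intervals from limma without (black) and with (purple) the library number as a block, for the 6 genes that passed the filter, Iltifb and Smarca4. Without the block, the interval of Il17f (1.58 to 2.58) lies clear of 0, and those of the other 5 family genes include 0. The intervals of Iltifb (0.14 to 1.23) and Smarca4 (-1.18 to -0.36) exclude 0, though neither gene was called. With the block, the interval of Il17a (-0.946 to -0.096) excludes 0 as well, without a call.

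Il17f and Il17a lie 42649 bases apart, so the genes around each ligand were compared as well. Of the 14 other genes annotated within 250 kb of the span from Il17a to Il17f, Mcm3 and Tram2 were abundant enough to test. Mcm3, a subunit of the replicative helicase whose start lies 29.7 kb from the GENCODE start of Il17f, was at 12.2 and 12.5 FPKM in controls against 20.3 and 13.9 FPKM in Brg1-deficient libraries (log2 fold change 0.41, adjusted p = 0.517 by limma). Tram2 was at 1.31 and 1.26 FPKM against 2.06 and 1.87 FPKM (log2 fold change 0.38, adjusted p = 0.629 by limma). The GENCODE span of Il17f begins before the RefSeq start used for the promoter window, so distances from the RefSeq start differ. Neither neighbour was called, and among the 4 genes tested at this locus Il17f alone was.

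At the Il22 locus, 3 of 20 neighbours in or within 250 kb of the span from Il22 to Iltifb were tested. Ifng, which encodes the type 1 cytokine interferon gamma and starts 236.1 kb from the start of Il22, was at 22.8 and 37.3 FPKM in controls against 3.42 and 3.22 FPKM in Brg1-deficient ILC3s. It fell by 2.80 on the log2 scale (SE 0.267, adjusted p = 0.0386 by limma), and its groups were far apart. Ifng is itself one of the ILC1 and NK markers given above, and is also expressed by NKp46+ ILC3s. Mdm1, on the other side of Il22, was at 7.56 and 9.20 FPKM against 7.02 and 7.35 FPKM (log2 fold change -0.19, adjusted p = 0.710 by limma), and Iltifb was the third. In this window, therefore, Ifng was called lower while Il22 and Iltifb had positive log2 fold changes that were not called.

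**Figure D4:**
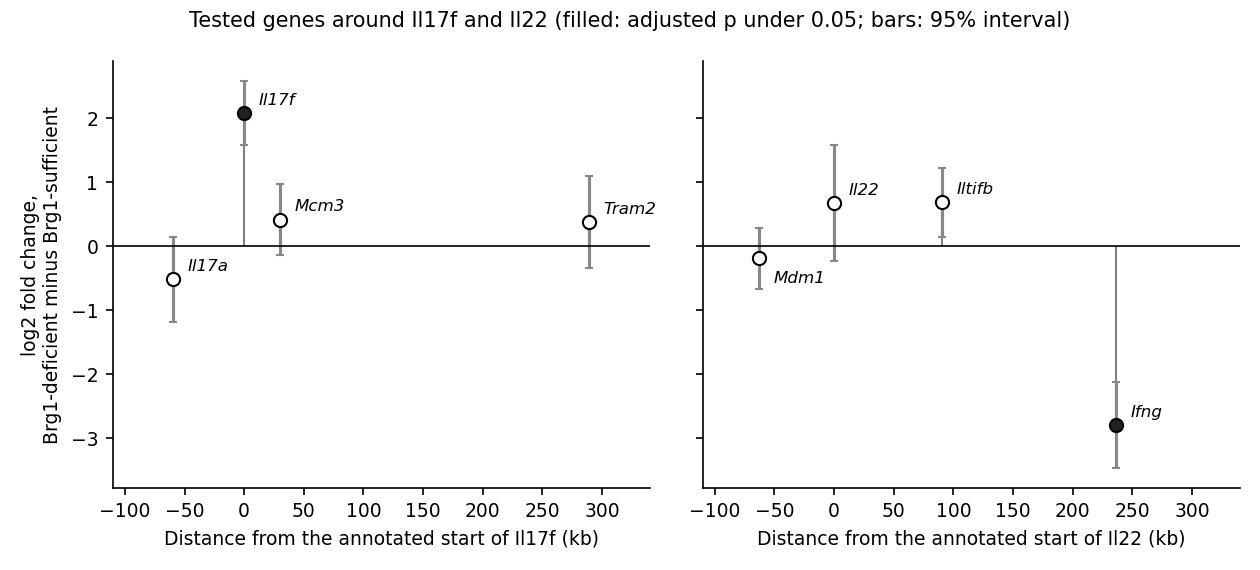
Log2 fold change (log2(FPKM + 1) scale) with 95% confidence intervals for genes tested around Il17f and Il22, against the distance of their start from the GENCODE start of the ligand in kb. The windows reach 250 kb beyond the spans from Il17a to Il17f and from Il22 to Iltifb. Filled points were called. Il17f at 2.08 and Ifng at -2.80 stand apart from their neighbours, which lie between -0.52 and 0.69.

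The transcripts whose levels ran most like each ligand over the 4 libraries were listed among 8089 protein-coding genes, by the Euclidean distance of centred log2(FPKM + 1) values. For Il17f they were Aqp9 (0.315), Fam155a (0.352), Gja1 (0.481) and Hsd11b1 (0.572). Aqp9, a channel for water and glycerol, was at 2.57 and 2.03 FPKM in controls against 16.9 and 15.0 FPKM in Brg1-deficient ILC3s (log2 fold change 2.36, adjusted p = 0.0386 by limma). Hsd11b1, which regenerates active glucocorticoid, was at 107 and 79.2 FPKM against 284 and 249 FPKM. For Il17a they were Kif23 (0.0649), Ankrd9 (0.107), Ppp1r1b (0.108) and Lig1 (0.131), and for Il22 Rpl12 (0.115), Piezo1 (0.150), Pycr1 (0.214) and Msmo1 (0.309). With 4 libraries, many genes run alike, and the distances are a description.

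Cytokine transcripts are often short-lived through AU-rich elements, and the pentamer ATTTA was counted in the untranslated region after the stop codon of the GENCODE M21 transcripts. It occurred 7 times in Il17a, 6 times in Il22 and 3 times in Il17f, where the median of 21640 genes was 1. As many as in Il17a were found in 10.8% of genes, as in Il22 in 13.9% and as in Il17f in 30.4%. Il17f, the called ligand, had the fewest of the 3. Among the receptor genes, Il17ra had 6 in a much longer region of 5075 bases, Il22ra2 had 5, and Il17rc, Il17re and Il22ra1 had 0. RNA stability was not measured here.

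Other genes of the same families were read from the same fit. Of the 11 outside the 10 above, 6 were tested and 0 were called, with a median log2 fold change of 0.34 beside 0.03 for all genes tested. Il17rb, the IL-25 receptor subunit, was at 29.9 and 9.96 FPKM in controls against 1.55 and 1.29 FPKM in Brg1-deficient ILC3s, values that did not overlap (log2 fold change -2.93, SE 0.495, adjusted p = 0.104 by limma). With the library number as a block it was called lower (adjusted p = 0.00297 by limma), a fit in which 2.7% of all genes tested were called. Il17rb is also one of the ILC2 markers, whose sum was lower in the Brg1-deficient libraries.

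The signalling chains below the receptors had no call. For IL-17, from the adaptor Act1 (Traf3ip2) to the RNA-binding regulators, 22 genes were tested, 0 were called, and the median log2 fold change was 0.06. The 2 most abundant were Tnfaip3, a deubiquitinase that limits NF-κB, at 762 and 884 FPKM in controls and 976 and 780 FPKM in Brg1-deficient ILC3s, and Nfkbiz, a nuclear IκB protein, at 231 and 258 against 328 and 277 FPKM. Their log2 fold changes were 0.09 (adjusted p = 0.862) and 0.30 (adjusted p = 0.498, both by limma). For IL-22, all 10 genes were tested, 0 were called, and the median was -0.04. Stat3, the main transducer of IL-22, was at 191 and 230 FPKM in controls and 210 and 162 FPKM in Brg1-deficient ILC3s (log2 fold change -0.18, adjusted p = 0.714 by limma). Jak1, the kinase bound to the IL-22 receptor, was at 209 and 215 against 196 and 185 FPKM (log2 fold change -0.15, adjusted p = 0.653 by limma). The groups overlapped for Tnfaip3 and Stat3, and were apart by a narrow margin for Nfkbiz and Jak1.

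Of the 28 regulators of type 17 cytokines, 26 were tested and 0 were called, with 8 positive and 18 negative log2 fold changes and a median of -0.24 beside 0.03 for all genes tested. At an unadjusted p under 0.05, 3 were higher and 7 were lower, beside the 12.6% of all genes tested that passed in either direction. Il1r2, the decoy receptor for IL-1, was at 29.0 and 15.1 FPKM in controls and 5.07 and 5.74 FPKM without Brg1 (log2 fold change -1.78, adjusted p = 0.113 by limma, 0.0118 with the block). Zbtb46, a zinc finger factor that is also a dendritic cell marker, was at 40.4 and 31.1 FPKM against 12.2 and 7.51 FPKM (log2 fold change -1.78, adjusted p = 0.0917 by limma, 0.00255 with the block). Ikzf3, the gene of Aiolos, was at 63.9 and 67.1 FPKM against 37.4 and 34.6 FPKM (log2 fold change -0.84, adjusted p = 0.102 by limma, 0.0421 with the block). The groups did not overlap for any of these 3 genes, which were named because the fit with the block called them. Among all 26 tested, the groups did not overlap in 20, against 44.6% of all genes tested. Of these 20, 8 were higher and 12 were lower in Brg1-deficient ILC3s.

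The 2 most abundant regulators were Id2, which all innate lymphoid cells need, and Bhlhe40, a stress-responsive factor. Id2 was at 1400 and 1302 FPKM in controls and 1002 and 1243 FPKM in Brg1-deficient ILC3s (log2 fold change -0.27, adjusted p = 0.566 by limma). Bhlhe40 was at 1293 and 1121 FPKM against 767 and 687 FPKM (log2 fold change -0.73, adjusted p = 0.148 by limma). Neither was called with or without the block.

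Type 17 lymphoid cells make other cytokines beside IL-17 and IL-22. Of 10 such genes, 9 were in the table and 8 were tested, with 1 called higher and 1 called lower and a median log2 fold change of 0.44. The one called lower was Ifng, given above. Il2, the T cell growth factor, was called higher, from 4.58 and 7.98 FPKM in controls to 59.3 and 59.6 FPKM in Brg1-deficient ILC3s (log2 fold change 3.09, SE 0.256, adjusted p = 0.0383 by limma). Csf2, the gene of GM-CSF, was at 245 and 200 FPKM against 564 and 638 FPKM (log2 fold change 1.44, adjusted p = 0.0572 by limma, 0.00473 with the block). Lif, a cytokine of the IL-6 family, was at 22.2 and 28.2 FPKM against 71.9 and 56.3 FPKM (log2 fold change 1.31, adjusted p = 0.0917 by limma, 0.0141 with the block). Ltb, which encodes lymphotoxin beta and was one of the 2 most abundant genes of the list with Csf2, was at 473 and 491 FPKM against 243 and 317 FPKM (log2 fold change -0.79, adjusted p = 0.16 by limma). Over the 8 genes tested the groups did not overlap in 6, against 44.6% of all genes tested. Of these 6, 4 had higher values in Brg1-deficient ILC3s, Tnf among them at 138 and 232 FPKM against 288 and 353 FPKM (log2 fold change 0.83, adjusted p = 0.316 by limma), and the groups overlapped for Il10 and Lta.

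Genes that IL-17 and IL-22 are known to induce in epithelial and myeloid cells were read from the sorted ILC3s as well. Of 20, 11 were below 1 FPKM in all libraries, Duoxa2 was listed at 0 in all of them, and 0 of the 8 tested were called (median log2 fold change -0.25). The 2 most abundant were the neutrophil chemokine genes Cxcl1 and Cxcl2. Cxcl1 was at 27.4 and 28.8 FPKM in controls and 17.5 and 12.0 FPKM in Brg1-deficient ILC3s (log2 fold change -0.91, adjusted p = 0.184 by limma). Cxcl2 was at 64.5 and 134 FPKM against 89.6 and 64.9 FPKM (log2 fold change -0.29, adjusted p = 0.783 by limma), with overlapping groups.

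**Figure D5:**
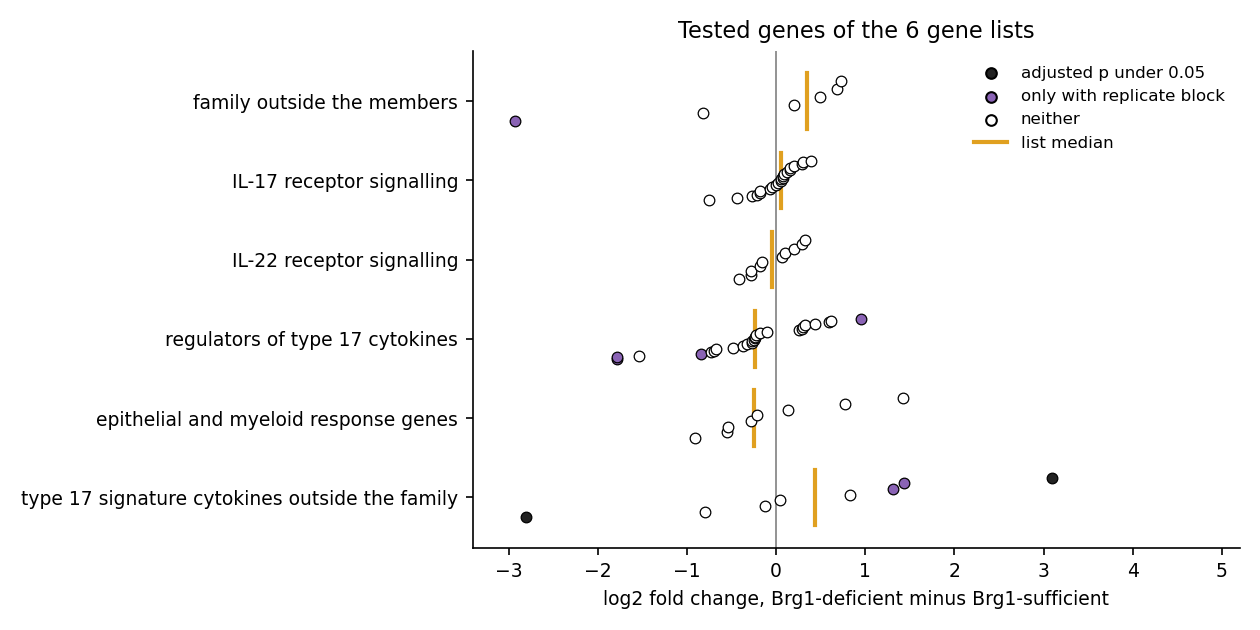
Log2 fold change (log2(FPKM + 1) scale) of each tested gene in the 6 gene lists, with the list median as a gold line; black points were called and purple ones were called with the block alone. Most points of the signalling lists lie near 0, while Il2 at 3.09 and Ifng at -2.80 in the list of other type 17 cytokines were the genes called.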

How the data were processed

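RNA from sorted ILC3s was sequenced single end, with a read length that the study gives both as 50 and as 90 bases. The authors mapped reads with STAR 2.5, quantified genes with RSEM 1.2 on GRCm38.p5 with GENCODE M16, and deposited the results as FPKM for each gene of each library. Their edgeR test on counts was not used here, because FPKM are not counts, and depth is unknown. Genes with a mean above 1 FPKM in either group were tested with limma 3.58.1 (R 4.3.3, eBayes with trend) on log2(FPKM + 1), adjusted by Benjamini-Hochberg over all 14739 genes. The scripts were tested on simulated data. Ratios and shares were tested by exact permutation. Positions and transcripts came from GENCODE M21 (GRCm38), where 53274 of 53379 identifiers matched, and promoters from RefSeq. Libraries were grouped by the genotype in the labels, and the construct used for deletion and 1 gene of the regulator and ILC3 marker lists, which stays in their counts, are not reported here. Named were the 10 genes, Smarca4, genes of the 6 lists with an adjusted p under 0.05 with or without the block and the 2 most abundant of each, the 4 genes most like each ligand among those with a mean above 5 FPKM in either group, and tested neighbours. The genes, lists, markers and tests were chosen with earlier results of these data known. Alternatives were a pseudocount of 0.1, other filters, no trend, TPM scaling, a block on library number, and leaving out each library.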

Additional observations from a re-analysis of the deposited data

How the results depend on the processing

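The calls depended on the fit. With no filter on low values, 0 genes were lower and 0 higher by limma at an adjusted p under 0.05 (2708 at an unadjusted p under 0.05), 0 of the 10 family genes and 0 of the list genes were called. Without the trend of variance these counts were also 0, 0, 0 and 0 (1868 genes at an unadjusted p under 0.05). On leaving out each library in turn, all 4 counts ranged from 0 to 0 in place of 33, 12, 1 and 2, which leaves 1 group with a single library that is assumed to vary like the other group. With the library number as a replicate block, 248 genes were lower and 150 higher, 9 list genes were called, and Il17f was still the 1 family gene called (adjusted p = 0.0007 by limma). The labels do not say that the numbers pair libraries, though marrow of both donors was mixed in the same recipients, so pairing is possible. The deviations of same-numbered libraries did not correlate over all 14739 genes (Pearson's r = -0.000386), which does not settle it for single genes. Lyz2 rose from library 1 to library 2 in controls (84.1 and 203 FPKM) and in Brg1-deficient ILC3s (64.4 and 192 FPKM). Il22 rose in controls (8328 and 10408 FPKM) and fell in Brg1-deficient ILC3s (21159 and 10408 FPKM). No value changed direction. Among the 8 genes recomputed singly (the 6 tested family genes, Iltifb and Smarca4), 75 values under alternatives kept their direction and their side of the threshold, and 6, all of Il17f, kept their direction and lost the call. The 28 alternative values of the ratios and shares, which have no call, moved by less than the pooled SD between libraries. With 2 libraries per group, leaving out 1 cannot move a value by more than this SD, and the block leaves it unchanged. These settings therefore could not show whether the ratios and shares depend on them. A pseudocount of 0.1, TPM scaling and a mean over all libraries kept the call of Il17f. The values of the libraries already share a distribution, so TPM scaling could change little and could not show whether the call depends on normalization. Depth is unknown, so counting error at low FPKM could not be given.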
